A study of Mus musculus with 2 samples.

Results

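The 10 genes described here are widely used marks of stromal fibroblasts, the connective tissue cells of the gut wall: Dcn, Lum, Pdgfra, Pdgfrb, Fbln1, Fbn1, Pi16, Cd34, Sparc and Vim. They were taken as a named list and found by Ensembl identifier among the 43346 genes of the deposited tables, where all 10 were present in both libraries. The tissue was whole small intestine from 1 adult female C57BL/6J mouse aged 10 weeks, with no treatment or genetic change in the labels. Poly(A) RNA of this animal was sequenced as technical replicate 1, called the first library, and again as technical replicate 2, called the second, which the labels date to 2015. Both belong to a single group, so no condition was compared and no value speaks for variation between mice. Wherever a pair of values is given, the first library comes first.

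Fibroblasts lie beneath the epithelium, around the crypts and along blood vessels, and they make the collagens, proteoglycans and elastic fibres on which the epithelium rests. In the intestine, cells with much PDGFRA sit against the epithelium and secrete bone morphogenetic proteins, whereas cells with little PDGFRA lie deeper, near the crypt base, and supply Wnt agonists and bone morphogenetic protein antagonists. None of the 10 genes is confined to fibroblasts: pericytes and smooth muscle carry PDGFRB, endothelium carries CD34, and leukocytes, endothelium and muscle contain vimentin. In whole tissue, fewer cells of a type and less RNA per cell cannot be told apart.

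Depth was 28277875 expected counts in the first library and 24509862 in the second. Mitochondrial genes and their nuclear copies took 72.3% of all TPM (the deposited abundance corrected for transcript length, a share of a fixed total) in the first library and 21.6% in the second. Rescaled TPM is therefore also given, scaled to the usual TPM total over all other genes. Enterocyte markers, which check the tissue label, reached 1 TPM in each library in 8 of 8 cases. Ratios between the libraries use expected counts scaled by the trimmed mean of M-values (TMM) and are written as log2 of second over first with the standard error (SE) from counting. A gene is called different where a two-sided exact binomial test with Benjamini-Hochberg adjustment over 15194 tested genes gave an adjusted p under 0.05 and the difference was 2-fold or more. Such a gene has a second-library call or a first-library call, by the side on which it was higher. That test compares 2 libraries and covers counting error only.

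Together the 10 genes took 0.0157% of TPM in the first library and 0.0398% in the second. On the rescaled TPM the shares were 0.0568% and 0.0508%. These nearly equal sums contain opposite differences between single members. Rescaled TPM was 311 and 111 for Dcn, but 14.9 and 185 for Fbln1. The members reached 1 TPM in 8 of 10 cases in the first library and in 9 of 10 in the second. By TPM the first library ran Dcn, Sparc, Vim, Lum, Pdgfra, Cd34, Fbln1, Fbn1, Pdgfrb, Pi16, and the second ran Fbln1, Dcn, Sparc, Vim, Lum, Pdgfra, Cd34, Pdgfrb, Fbn1, Pi16. By the deposited credibility intervals, whose level was not stated, the neighbours Vim and Lum, and Pdgfrb and Pi16, overlapped in the first library. In the second library the only neighbours that overlapped were Lum and Pdgfra. Fbln1 thus moved from the seventh place to the top and Pdgfrb passed Fbn1, while the other members kept their order. Some of the ordered TPM lay outside their own intervals. In the second library those of Fbln1 and Dcn lay above their intervals, which ended at 142 and 86.5 TPM. In the first library that of Pi16, 0, lay below its interval, which began at 0.0123 TPM.

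**Figure D1:**
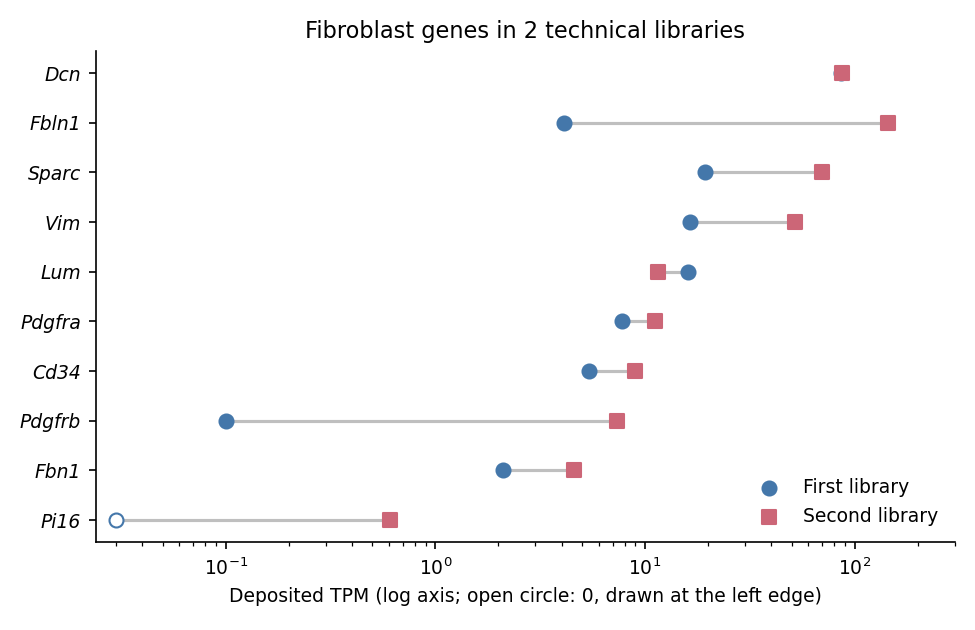
Deposited TPM on a log axis for each of the 10 genes, with a circle for the first library, a square for the second and a line joining them; the open circle for Pi16 stands for 0. The symbols of Dcn coincide near 86.0 and 87.3 TPM, whereas those of Fbln1 lie at 4.11 and 145 TPM and those of Pdgfrb at 0.10 and 7.34 TPM.

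Dcn and Lum encode decorin and lumican, small leucine-rich proteoglycans that bind collagen fibrils and govern their spacing. Dcn (ENSMUSG00000019929.11, mm10 chr10:97479609-97518143, plus strand) stood at 86.0 and 87.3 TPM, from 4117 and 2711 expected counts. Rescaled TPM of Dcn was 311 and 111, and the TMM-scaled log2 ratio was -1.24 (SE 0.04), a level 2.35-fold higher in the first library (exact binomial test, Benjamini-Hochberg adjusted p = 2.6e-269). Near-equal deposited TPM thus stands beside unequal rescaled TPM and counts for Dcn. Lum (ENSMUSG00000036446.4, chr10:97565128-97572703, plus strand) gave 892 and 410 expected counts, 16.0 and 11.5 TPM, and 57.8 and 14.6 rescaled TPM. Its log2 ratio was -1.75 (SE 0.09), 3.37-fold higher in the first library (exact binomial test, Benjamini-Hochberg adjusted p = 2.04e-100). With library totals left unscaled the ratios were -0.40 for Dcn and -0.91 for Lum, both under the 2-fold threshold. Within a library, where scaling cancels, Lum stood at 0.186 of the TPM of Dcn in the first and 0.132 in the second. Both genes lie in a cluster of proteoglycan genes, 46984 bases apart with 0 annotated genes between them. Kera and Epyc, the neighbouring proteoglycan genes of the cornea and cartilage, had 6 and 2 expected counts together.

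Dcn and Lum are also the members of lowest GC content, 42.5% and 41.9% over their transcripts. Their coding sequences had 47.6% and 44.5% GC and their 3' untranslated regions 30.5% and 32.5%. Below are 120 bases from the middle of each coding sequence, 5' to 3' on the coding strand. They come from the GENCODE M21 transcripts on mm10, with every G and C in capitals.
Lum-201: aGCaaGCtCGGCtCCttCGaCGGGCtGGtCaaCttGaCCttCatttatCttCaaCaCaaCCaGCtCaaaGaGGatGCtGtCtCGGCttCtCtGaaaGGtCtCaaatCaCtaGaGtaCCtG
Dcn-202: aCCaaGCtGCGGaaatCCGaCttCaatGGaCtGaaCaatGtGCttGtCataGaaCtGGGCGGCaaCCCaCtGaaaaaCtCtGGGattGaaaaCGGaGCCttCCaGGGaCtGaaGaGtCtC
The stretch of Lum-201, coding bases 448 to 567, holds 59 G or C, and that of Dcn-202, coding bases 472 to 591, holds 60. At 49.2% and 50% GC, both stretches are richer in GC than the whole coding sequences of Lum and Dcn. The 3' untranslated regions, of lower GC, are not shown.

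Pdgfra and Pdgfrb encode the paired receptor tyrosine kinases of platelet-derived growth factor. Pdgfra (ENSMUSG00000029231.11, chr5:75152292-75198215, plus strand, 47.1% GC) stood at 7.79 and 11.1 TPM, from 1467 and 1332 expected counts. Its log2 ratio was -0.77 (SE 0.05), 1.71-fold higher in the first library and short of the 2-fold threshold, and its rescaled TPM was 28.2 and 14.2. Pdgfrb (ENSMUSG00000024620.7, chr18:61045150-61085061, plus strand, 55.1% GC) had 16 expected counts in the first library and 723 in the second. Its TPM was 0.10 with a deposited interval of 0.062 to 0.165, and 7.34 with an interval of 6.52 to 7.54. The log2 ratio of Pdgfrb was 4.82 (SE 0.36), 28.3-fold higher in the second library (exact binomial test, Benjamini-Hochberg adjusted p = 4.89e-130). The balance of the receptors therefore differed: the TPM of Pdgfra was 77.9 times that of Pdgfrb in the first library and 1.51 times in the second. These TPM ratios are not adjusted for the GC trend described further on. With that trend removed, the log2 ratios were -0.29 for Pdgfra and 1.85 for Pdgfrb. Of the 4 ligand genes of these receptors, 1 was called in each direction. Among all tested genes the shares were 40.2% for the second library and 27.4% for the first. Pdgfb, the main ligand of PDGFRB, stood at 0.02 and 2.71 TPM, from 2 and 140 expected counts, and had a second-library call. Pdgfd stood at 1.72 and 0.89 TPM and was called higher in the first. Pdgfa, at 10.3 and 28.4 TPM, and Pdgfc, at 2.46 and 2.87 TPM, were called in neither direction. Once the same GC trend was removed, 0 of the 4 ligand genes had a second-library call, against 14% of all tested genes. Pdgfa alone then had a first-library call, at a log2 ratio of -2.61, against 12.9% of all tested genes.

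Fbln1 and Fbn1 encode fibulin-1, a calcium-binding glycoprotein of basement membranes and elastic fibres, and fibrillin-1, the main subunit of microfibrils. Fbln1 (ENSMUSG00000006369.10, chr15:85205949-85286535, plus strand, 56.7% GC) gave 419 expected counts in the first library and 6568 in the second. Its TPM was 4.11 and 145, and its rescaled TPM 14.9 and 185. The log2 ratio of Fbln1 was 3.34 (SE 0.07), 10.1-fold higher in the second library, with an adjusted p of the exact binomial test below the smallest number the software represents. Measured against Dcn in the same library, Fbln1 stood at 0.0478 of its TPM in the first and at 1.66 times its TPM in the second. Fbn1 (ENSMUSG00000027204.9, chr2:125300594-125507993, minus strand, 51.3% GC) gave 604 and 826 expected counts and 2.11 and 4.57 TPM. Its log2 ratio was -0.18 (SE 0.08), within the 2-fold threshold (exact binomial test, Benjamini-Hochberg adjusted p = 0.0239). The TPM of Fbln1 was 1.95 times that of Fbn1 in the first library and 31.7 times in the second.

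The libraries also assigned Fbln1 to different isoforms. Fbln1-201, a transcript of 3659 bases with a 3' untranslated region of 1359 bases, took 98.2% of the gene's TPM in the first library and 22.6% in the second. Fbln1-202, of 2273 bases with a 3' untranslated region of 89 bases, took 1.81% and 77.4%. In expected counts Fbln1-201 had 414 and 2147 (posterior SD 1.73 and 40.1), and Fbln1-202 had 4.59 and 4421. The deposited counts of both isoforms were higher in the second library, those of the shorter one by far the more, and this split was not tested. They share 1832 bases and part before the end of the coding region, so they encode different C-terminal ends of fibulin-1. The bases found in Fbln1-201 alone number 1827 at 51.3% GC, and those in Fbln1-202 alone number 441 at 57.1% GC. The first line below gives 120 bases from the middle of the coding sequence, shared by both, for comparison with Dcn and Lum. The other lines give the first 120 coding bases found in 1 isoform and not in the other, where reads can tell them apart, again 5' to 3' with G and C in capitals.
Fbln1-201 middle: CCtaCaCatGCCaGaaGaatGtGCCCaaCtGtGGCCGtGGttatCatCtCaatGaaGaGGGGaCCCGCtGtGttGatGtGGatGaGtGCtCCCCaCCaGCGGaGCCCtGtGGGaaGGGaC
Fbln1-201 end: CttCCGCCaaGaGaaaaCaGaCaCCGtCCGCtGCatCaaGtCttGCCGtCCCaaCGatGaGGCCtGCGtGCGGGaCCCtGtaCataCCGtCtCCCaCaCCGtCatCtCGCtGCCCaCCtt
Fbln1-202 end: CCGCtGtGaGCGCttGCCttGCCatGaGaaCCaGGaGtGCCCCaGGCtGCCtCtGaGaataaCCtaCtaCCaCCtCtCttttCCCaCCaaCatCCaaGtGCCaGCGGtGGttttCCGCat
The shared stretch, coding bases 998 to 1117, holds 69 G or C. The end of Fbln1-201, at mm10 chr15:85263259-85263378 on the plus strand, holds 72, and that of Fbln1-202, at chr15:85251445-85251564, holds 68. The long 3' untranslated region of Fbln1-201, not shown, has 48.5% GC, less than any of these stretches.

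Sparc encodes osteonectin, a matricellular protein that binds calcium and collagen. Sparc (ENSMUSG00000018593.8, chr11:55394500-55423183, minus strand, 51.9% GC) gave 1103 and 2627 expected counts, 19.4 and 69.8 TPM, and 70.0 and 89.0 rescaled TPM. Its log2 ratio was 0.62 (SE 0.05), 1.54-fold higher in the second library and under the 2-fold threshold. Vim (ENSMUSG00000026728.5, chr2:13573927-13582826, plus strand, 53.8% GC), the intermediate filament of mesenchymal cells, gave 969 and 1393 expected counts and 16.3 and 52.1 TPM. On the TMM scale its log2 ratio was -0.11 (SE 0.06), which the exact binomial test did not separate from 0 (Benjamini-Hochberg adjusted p = 0.0825). The sign for Vim depended on scaling, as did that for Fbn1: with library size counted without mitochondrial genes and copies they stood at 0.0926 and 0.0205. With library totals left unscaled Sparc stood at 1.46, past the 2-fold threshold. The TPM of Sparc was 1.19 and 1.34 times that of Vim, whereas its expected counts were 1.14 and 1.89 times those of Vim. In the second library 18.4 of the 52.1 TPM of Vim came from a short retained-intron transcript with few counts, described further on. The TPM of Dcn was 4.44 and 1.25 times that of Sparc and 5.27 and 1.67 times that of Vim.

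Cd34 and Pi16 mark the adventitial fibroblasts that surround vessels. Cd34 (ENSMUSG00000016494.5, chr1:194938819-194961279, plus strand, 49.2% GC), a sialomucin that endothelium also carries, gave 365 and 390 expected counts and 5.41 and 8.95 TPM. Its log2 ratio was -0.54 (SE 0.11), within the 2-fold threshold, and its rescaled TPM was 19.6 and 11.4. Pi16 (ENSMUSG00000024011.12, chr17:29317680-29330593, plus strand, 56.6% GC), a secreted peptidase inhibitor, had 0 expected counts in the first library and 23 in the second. The second library put Pi16 at 0.61 TPM, with a deposited interval of 0.409 to 1.03. A count of 0 in the first library allows up to 3 counts. Set against 3 counts there, with TMM-scaled library sizes, the level of Pi16 in the second library was 4.94-fold higher. This figure leaves out the counting error of the 23 counts. The counts of 0 and 23 themselves differed (exact binomial test, Benjamini-Hochberg adjusted p = 2.83e-05). Pi16 had the lowest TPM of the members in both libraries, with an interval that overlapped that of Pdgfrb in the first.

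Smaller differences in isoform shares were found in Sparc, Vim, Cd34 and Dcn. Sparc-201, which has 182 bases of its own in the 5' untranslated region, took 0.87% and 37.7% of the gene's TPM; its 185 own bases have 61.1% GC. Vim-203, a retained-intron transcript of 535 bases that shares 483 with the coding transcript Vim-201, took 0 and 35.2%, from 0 and 123.67 of the gene's expected counts. Cd34-202 took 16.3% and 38.8%, from 61.66 and 155.46 expected counts (posterior SD 36.2 and 23.66). Its deposited interval in the first library ran from 0.271 to 2.19 TPM, so its share there is only loosely determined. For Dcn, Dcn-201 took 15.3% and 35.9%. All M21 models of Dcn, Lum and Pdgfra differed in length from the deposited transcripts, and only 1 of 4 matched for Pi16. The GC and untranslated region values of these genes rest on the M21 models. The splits of Pdgfra and Pdgfrb were undetermined in the first library, where the deposited intervals of their isoforms overlapped. In the second library the interval of Pdgfra-201 was 9.07 to 11.0 TPM, and that of Pdgfra-202 reached 1.33. There the interval of Pdgfrb-201 was 5.97 to 7.45 TPM, and that of Pdgfrb-202 reached 0.842. Pdgfra-201 was assigned all counts, yet their posterior SD was 286.73 in the first library and 52.63 in the second. Pdgfrb-201 was likewise assigned all 16 and 723 counts, with a posterior SD of 4.72 and 28.93. Lum had 1 transcript, Pi16 had counts in 4 transcripts in the second library alone, and Fbn1-201 took 100% and 99.2% of Fbn1. The posterior SD of the gene-level count was 0 for each of the 10, so no count of a member was shared with another gene. Of the annotated genes overlapping a member, Gm16897, antisense to Cd34, had 3 and 2 counts, Gm9913, opposite to Fbn1, had 0 and 2, and Mir7025, in Pdgfra, had 0 in both.

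**Figure D2:**
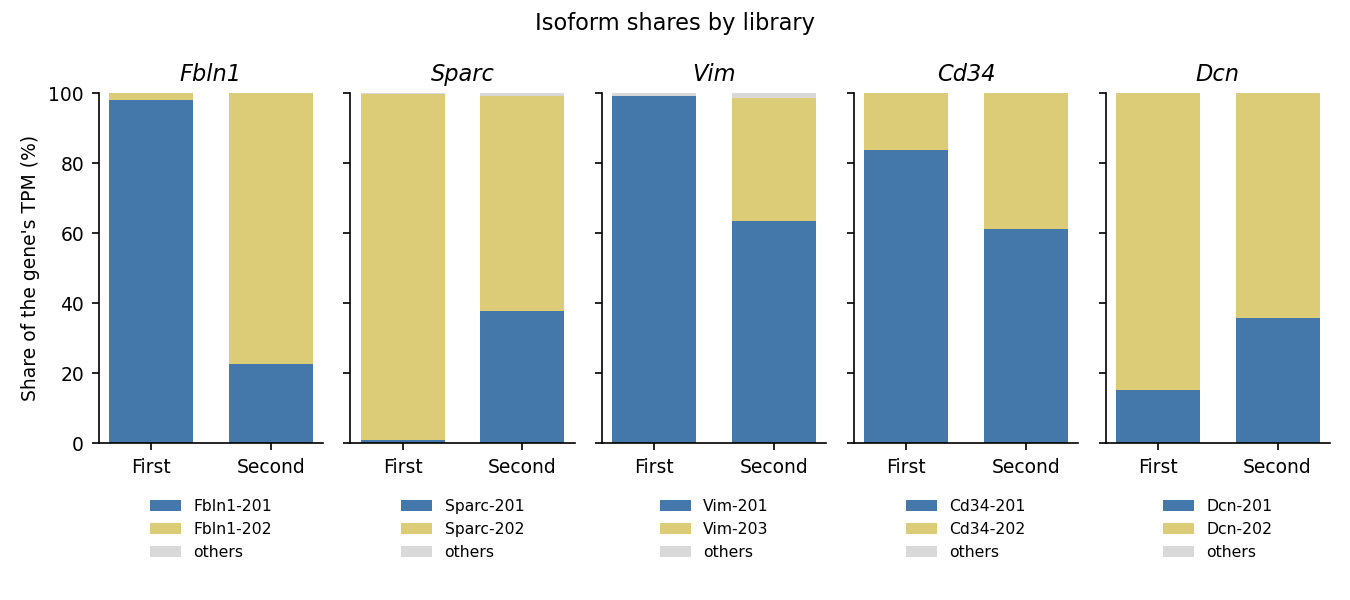
Stacked bars of the percent of each gene's TPM held by its transcripts, 1 bar per library, for the 5 members of the isoform shares described above; grey stands for all other transcripts. Fbln1-202 goes from 1.81% to 77.4% and Sparc-201 from 0.87% to 37.7%, while Dcn-202 holds the larger part of Dcn in both.

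Of the 10 genes, 3 had second-library calls (Pdgfrb, Fbln1 and Pi16), against 40.2% of all tested genes. Another 2 had first-library calls (Dcn and Lum), against 27.4%, and 5 had neither (Pdgfra, Fbn1, Cd34, Sparc and Vim). Calls in either direction, 5 of 10 members, compare with 67.5% of all genes, so the members' shares were not above those of the background. By adjusted p alone, with no fold threshold, 9 of 10 members differed against 88.4% of all genes, 4 of them toward the second library (48.7% of genes) and 5 toward the other (39.7%). The median of the members' log2 ratios was -0.15, and that of all tested genes was 0.26. The members ranged from -1.75 for Lum to 4.92 for Pi16, whose value depends on the prior count added to its 0 counts. Next below Pi16 came Pdgfrb, at 4.82.

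The ratios followed GC content. Over the 10 members, Pearson's r between GC content and log2 ratio was 0.830 and Spearman's rho 0.952, and without Pi16, whose ratio depends on the prior count, 0.802 and 0.967 (n = 9). Over 15127 tested nuclear genes the same measures were 0.839 and 0.898. These are descriptions across genes, which share both libraries and are not replicates. Of the tested genes with 40 to 44% GC, where Dcn and Lum lie, 89.3% were called higher in the first library. Of those with 56 to 60%, where Fbln1 and Pi16 lie, 96.0% were called higher in the second. In the class of Pdgfrb and Vim, 52 to 56%, 78.5% were called higher in the second library, and Vim was not among them. The origin of the trend was not tested.

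**Figure D3:**
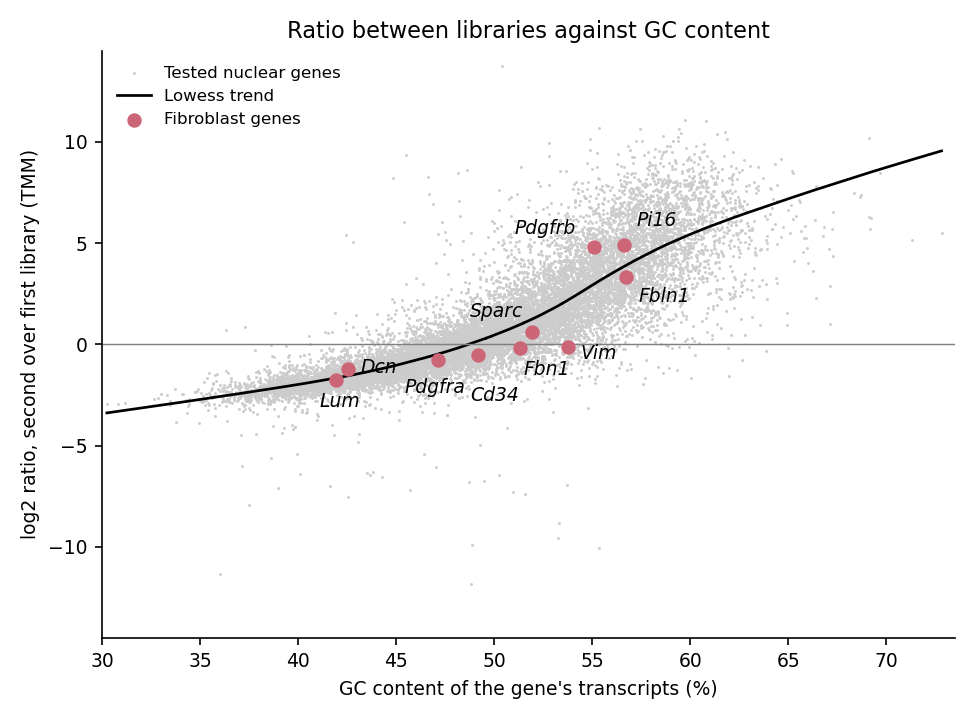
Log2 ratio of second over first library against the percent GC of each gene's transcripts, for 15127 tested nuclear genes (grey), the 10 fibroblast genes (red) and a lowess trend (line). Lum and Dcn lie at the low end near the trend, Fbln1 and Pi16 at the high end, Pdgfrb above the trend and Vim below it.

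With the trend of all nuclear genes removed, the members' differences changed in size and partly in sign. Dcn moved to a log2 ratio of 0.32, Lum to -0.09 and Fbln1 to -0.57, so none of these passed the 2-fold threshold any longer. The trend rests on GC weighted by each gene's transcript counts; with the unweighted mean over annotated transcripts, chosen after seeing the data, Fbln1 stood at 0.20, again under the threshold and of the other sign. Pi16 moved to 1.08, which the test did not separate from 0 (exact binomial test, Benjamini-Hochberg adjusted p = 0.806). Pdgfrb remained higher in the second library, at 1.85 (exact binomial test, Benjamini-Hochberg adjusted p = 5.2e-10). Vim and Fbn1, called in neither direction before, became higher in the first library. Vim stood at -2.30 (exact binomial test, Benjamini-Hochberg adjusted p = 3.33e-264) and Fbn1 at -1.15 (exact binomial test, Benjamini-Hochberg adjusted p = 1.15e-45), or -2.12 with the unweighted GC. Sparc moved to -0.63, Cd34 to -0.70 (0.0782 with the unweighted GC) and Pdgfra to -0.29, all within the 2-fold threshold. After this step 1 of 10 members had a second-library call, against 14% of all tested genes, and 2 of 10 a first-library call, against 12.9%; in either direction it was 3 of 10 against 26.9%. The members' median was -0.43 and that of all genes -0.02; with the unweighted GC the members' median was 0.0226.

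**Figure D4:**
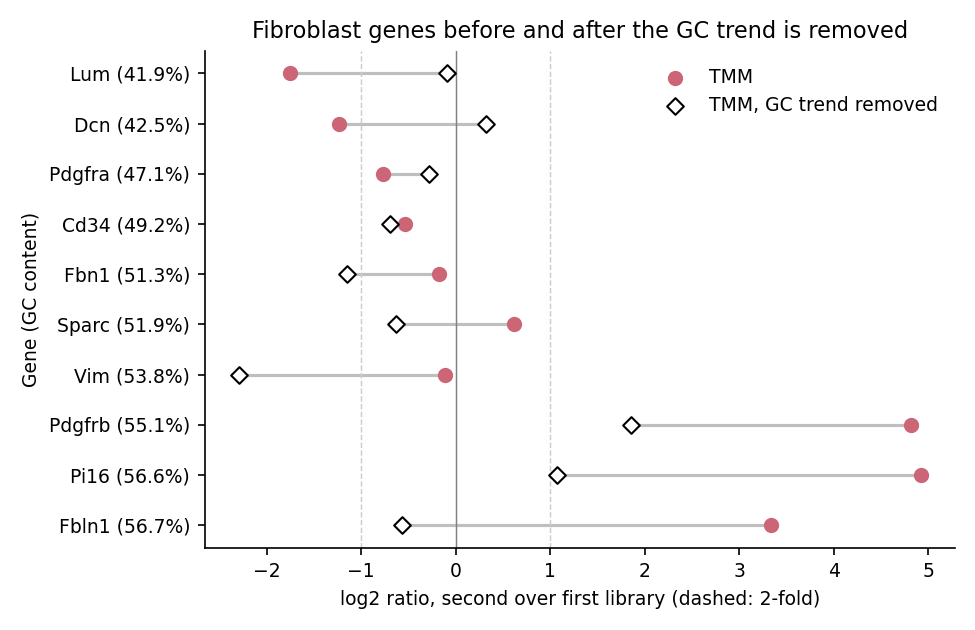
Log2 ratio of second over first library for each of the 10 genes, ordered by GC content (in brackets), on the TMM scale (filled circles) and after the GC trend is removed (open diamonds); dashed lines mark 2-fold. Fbln1 moves from 3.34 to -0.57 and Vim from -0.11 to -2.30, while Pdgfrb stays beyond the dashed line at 1.85.

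Markers of other cells that carry these genes differed between the libraries as well, and their summed levels are given here as percent of rescaled TPM. Of all tested genes 40.2% had second-library and 27.4% first-library calls, and 14% and 12.9% once the GC trend was taken out. Smooth muscle markers summed to 0.0196% and 0.108%. All 9 were tested, with 8 second-library calls and 1 first-library call, which became 6 and 0. Acta2, the actin of smooth muscle, stood at 36.6 and 290 rescaled TPM and kept a log2 ratio of 2.91 with the trend taken out. Pericyte markers summed to 0.0369% and 0.0109%, but Rgs5 alone made up most of both sums, so the lower sum reflects that gene. Of 7 tested, 5 had second-library and 2 first-library calls, which became 0 and 1. Rgs5, the most abundant of them, stood at 354 and 74.6 rescaled TPM and had a first-library call. Endothelial markers summed to 0.00843% and 0.0185%. Of 12, 8 had second-library and 2 first-library calls, which became 2 and 0, the former near the share of all genes. Leukocyte markers summed to 0.0272% and 0.0604%. Of 10, 7 had second-library calls and 1 a first-library call, which became 3 and 0. No marker of these 4 lists was at 0 counts in both libraries. Their part in the levels of Pdgfrb, Cd34, Sparc and Vim was not tested.

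The matrix partners of the members were counted in lists of their own, to be read against the same shares of all genes. Among 9 collagen genes, of types I, III, V, VI and XIV, 5 had second-library calls and 0 first-library calls. The 5 included all type VI genes of the list. With the GC trend taken out, 0 had second-library and 7 of 9 first-library calls, with a median log2 ratio of -1.47. That count depended on how GC was averaged: with the unweighted GC it was 0 and 4, with a median of -0.44. Col3a1, at 162 and 96.6 rescaled TPM, went from -0.70 to -2.17, or to -0.44 with the unweighted GC. Col6a1, at 9.36 and 49.8 rescaled TPM, went from 2.63 to -1.24, or to -1.58. Col1a2, at 38.2 and 27.7 rescaled TPM, went from -0.12 to -3.39, or to 0.37, of the other sign. Of the other small leucine-rich proteoglycans, 10 of 15 were tested, with 5 second-library calls, 3 first-library calls and 2 genes with neither. Biglycan, Bgn, stood at 47.2 and 62.9 rescaled TPM with no call, and osteoglycin, Ogn, at 113 and 13.9, higher in the first library. With the trend taken out, 0 of the 10 kept a second-library call and 2 had first-library calls. Of 19 microfibril and elastic fibre genes, 11 had second-library and 2 first-library calls, which became 3 and 2. Ltbp4, a latent TGF-beta binding protein, stood at 0.0361 and 40.5 rescaled TPM, the former from only 2 expected counts. Its deposited TPM in the first library, 0.01, lay below its deposited interval of 0.101 to 0.675. Efemp1, which encodes fibulin-3, stood at 108 and 23.8 rescaled TPM. In the Sparc family and related genes 4 of 11 had second-library and 2 first-library calls, which became 1 and 0. Sparcl1, the closest relative of Sparc, stood at 101 and 79.5 rescaled TPM with a log2 ratio of -0.12 and no call.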

How the data were processed

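Poly(A) RNA of 1 small intestine was measured in 2 technical libraries. Per the file headers, the authors deposited gene and transcript tables in the RSEM layout, and the deposited notes name assembly mm10 and annotation M4. No aligner, quantifier version or read filter was stated. Expected counts are the authors' estimates and can be fractional. TPM and FPKM were deposited as length-corrected abundances. The authors also gave each transcript's percent of its gene's TPM. The deposited posterior SDs and credibility bounds, in the deposited signal units (counts and TPM), cover read assignment, and the bounds also cover counting. The posterior SDs of the counts leave out counting error. The bounds surround the authors' posterior mean, so a TPM can lie outside them.

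From these, symbols and positions came from GENCODE M21 by identifier without version, which matched 42462 of 43346 genes. BLAST 2.17.0 (95% identity over 100 bases) found nuclear copies of mitochondrial genes. Expected counts were rounded, scaled with TMM (edgeR 4.0.16) and tested with a two-sided exact binomial test on genes with 20 or more counts over both libraries, with Benjamini-Hochberg adjustment. The quasi-likelihood test of edgeR needs replicates and could not be fitted to 1 library a side. Log2 ratios carry 0.5 prior counts. The GC trend was a lowess (span 0.3, statsmodels 0.14.6) on GC content weighted by transcript counts, over tested nuclear genes. Because reads had no stated molecular identifiers, they need not be separate molecules. The scripts were tested on simulated data. Whether 1 RNA extraction served both libraries was not stated.

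All 10 members were named, and of every other list up to 4 genes of highest mean TPM, with genes overlapping or neighbouring a member. Members and lists were chosen with earlier results of these data known. Alternatives were DESeq2 1.42.0 size factors, other library sizes, count minimums and folds, the GC trend and rescaled TPM. No protein sequences were used here.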

Additional observations from a re-analysis of the deposited data

How the results depend on the processing

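With DESeq2 size factors all 10 members kept direction and call. With library size taken without mitochondrial genes and copies, which shifts every log2 ratio by 0.20, the calls stayed at 3 and 2, but Fbn1 (0.0205) and Vim (0.0926) changed sign. The rescaled TPM ratio also turned Vim (0.17). With unscaled library totals, a shift of 0.84, Pdgfra (0.0671), Fbn1 (0.66), Cd34 (0.30) and Vim (0.73) changed sign, and 0 members and 10.0% of genes were higher in the first library. Removing the GC trend turned Dcn (0.32), Fbln1 (-0.57) and Sparc (-0.63), left 1 member higher in the second library, and called 14.0% and 12.9% of genes higher in the second and first. An unweighted mean GC over annotated transcripts, chosen after seeing the data, gave Dcn 0.36, Cd34 0.0782, Sparc -0.96 and Fbln1 0.20, again 1 member higher in the second library, and 17.5% and 17.4% of genes; Pdgfrb (2.09), Vim (-2.44) and Fbn1 (-2.12) kept the calls made with the trend removed. Without a fold threshold 5 members were higher in the first library, and at 4-fold 0 members and 7.68% of genes. The members' summed TPM share, 0.0278% as the mean of both libraries, was 0.0157% to 0.0398% with either library left out and 0.0538% on rescaled TPM.

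No paired analysis was possible because both libraries belong to 1 group. All values rest on 1 animal, and the test does not cover error between libraries. Pi16, with 23 counts in all, and Pdgfrb in the first library, with 16, are the members limited by depth.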

Other observations

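Genes of 3 fibroblast types of the gut wall were also measured. Of 12 adventitial genes, 5 had second-library calls and 4 first-library calls, which became 0 and 1 once the GC trend was taken out. Of all tested genes 40.2% and 27.4% had such calls, and 14% and 12.9% afterwards, so these adventitial counts lay near or below the background. Ugdh (1870 and 426 rescaled TPM) and Dpp4 (1002 and 195) led this list; both are also expressed by the absorptive epithelium, where Dpp4 is a brush border peptidase, so their level does not describe fibroblasts alone. Dpt, which encodes the matrix protein dermatopontin, stood at 62.6 and 36.4 rescaled TPM, with a log2 ratio of -0.55 and no call. Of 12 genes of PDGFRA-high subepithelial cells, 7 had second-library and 3 first-library calls, which became 2 and 1. Tgfbi, a secreted adhesion protein, stood at 25.9 and 157 rescaled TPM and the morphogen gene Bmp5 at 48.6 and 9.54. Of 12 genes of PDGFRA-low crypt cells, 4 had second-library and 5 first-library calls, which became 0 and 3. Grem1, a bone morphogenetic protein antagonist, stood at 61.3 and 15.9 rescaled TPM and Cd81, a tetraspanin that many cell types carry, at 70.7 and 194.

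Beside Vim, 4 of 5 other intermediate filament genes were tested. Des, the filament of muscle, had 0.976 and 96.2 rescaled TPM. With the GC trend taken out its log2 ratio was 4.04, whereas Vim stood at -2.30, so these filament genes lay on opposite sides of the trend. Synm, Prph and Nes lay on the side of Vim, at -1.02, -1.95 and -2.83. Adipocyte markers summed to 0.0154% and 0.0519% of rescaled TPM. Fabp4, at 111 and 133 rescaled TPM with no call, made up most of the first sum. Pnpla2 stood at 2.24 and 132 rescaled TPM and Cidec at 1.99 and 131, both called higher in the second library. Of 7 adipocyte markers, 4 had second-library calls, 0 had first-library calls and 3 had neither. The calls became 3 and 0 with the GC trend taken out. To be read beside these and the following counts are 40.2% and 27.4% of all tested genes, and 14% and 12.9% afterwards. Mesothelial markers summed to 0.00176% and 0.000885%, lower in the second library. Upk1b, at 8.06 and 3.79 rescaled TPM, and Gpm6a, at 7.41 and 1.07, made up most of the first sum. Msln, with 0 and 35 expected counts, and Upk3b, with 4 and 63, went the other way. Of 5 mesothelial markers tested, 2 had second-library and 2 first-library calls, which became 0 and 1. Their median log2 ratio was -0.86, the value of Upk1b. Enteric glial markers summed to 0.00052% and 0.000625%. Of 4 tested, 3 had second-library calls and 1 a first-library call, which became 1 and 0.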
